A study of Mus musculus with 6 samples.

Results

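Enzymes that metabolise foreign and odorous compounds were examined in RNA from mouse olfactory epithelium. The set was taken by gene symbol: cytochromes P450 of the Cyp1 to Cyp4 families, flavin monooxygenases (Fmo), carbonyl reductases (Cbr), UDP-glucuronosyltransferases (Ugt1 and Ugt2), glutathione S-transferases (Gst) and sulfotransferases (Sult). It held 151 of the 21982 symbols present in both deposited tables. Of the 151 genes, 79 reached 1 FPKM (fragment number divided by transcript length and by library size) in at least 1 library, 48 reached 10 FPKM and 72 stayed under 1 FPKM in every library. The members just above the limit were Cyp2b13, Cyp4a32 and Cyp2u1, with highest values of 1.05, 1.16 and 1.32 FPKM, and those just under it were Ugt1a1, Cyp2c44 and Cyp2c69 at 0.973, 0.867 and 0.75 FPKM.

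The series holds 6 libraries of polyadenylated RNA from mice knocked out for enzymes that place repressive histone marks, and its title asks after a role of those enzymes in olfactory receptor expression. At E18.5, late in embryonic development, there were 4 libraries: a double knockout of G9a and GLP (G9a/GLP dKO), a G9a knockout heterozygous for GLP (G9a KO GLP het), a G9a knockout (G9a KO) and a G9a heterozygote (G9a het). At postnatal day 21 there were 2 libraries: a double knockout of Suv420h1 and Suv420h2 (Suv420h dKO) and the matching double heterozygote (Suv420h dhet). All 6 came from a mixed background that was mostly C57/B6, and the animals used for comparison were heterozygous mutants, not wild type. The labels name no Cre driver, no number of animals per library and no part of each gene that was removed. With only 1 library for every genotype, replicate error is unknown, no test between genotypes was possible, and every difference below is between 2 libraries.

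Clearance of small lipophilic molecules is commonly described in phases. Cytochromes P450, flavin monooxygenases and carbonyl reductases oxidise or reduce the molecule, and transferases then attach glucuronic acid, glutathione or sulfate to it. In the olfactory mucosa these enzymes are made chiefly by supporting (sustentacular) cells and by Bowman glands, where they clear odorants and activate or detoxify inhaled chemicals, and several P450s are far more abundant there than in most other tissues.

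None of the 4 targeted genes was at least 2-fold lower in the libraries labelled as knockouts. Ehmt2, which encodes G9a, was at 30.4 FPKM in G9a/GLP dKO, 32.5 in G9a KO GLP het, 30.2 in G9a KO and 24.5 in G9a het, and Suv420h1 was at 30.6 FPKM in Suv420h dKO against 31.0 in Suv420h dhet. A value for a whole gene can count transcript from outside a removed part, so these values do not check the labels. Between 14332 and 14853 genes reached 1 FPKM per library, and the sequencing depth is unknown. Ddx3y, a gene of the Y chromosome, was at 0 FPKM in G9a/GLP dKO, 29.2 in G9a KO GLP het, 0.0489 in G9a KO and 33.6 in G9a het, so the embryonic libraries also differed in Y-linked RNA. Skin keratinocyte genes differed as well: 9 of 10 listed markers were in the tables and summed to 3247.3 FPKM in G9a/GLP dKO, 2261.9 in G9a KO GLP het, 1676.1 in G9a KO and 1140.4 in G9a het.

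Supporting cell identity was checked on 8 markers that are not members. All 8 were above 0 in every library, and they summed to 251 FPKM in G9a/GLP dKO, 273 in G9a KO GLP het, 300 in G9a KO and 330 in G9a het, and to 1548.7 in Suv420h dKO against 1463.5 in Suv420h dhet. Markers of hepatocytes, which are also rich in these enzymes, summed to at most 1.85 FPKM in any library. The members themselves summed to 1526.6 FPKM in G9a/GLP dKO, 1512.0 in G9a KO GLP het, 2052.0 in G9a KO and 2442.6 in G9a het. That was 0.433%, 0.418% and 0.56% of all FPKM, against 0.671% in G9a het. In the postnatal libraries the members summed to 11521.1 FPKM in Suv420h dKO and 10652.5 in Suv420h dhet, which was 2.08% and 2.18% of all FPKM.

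A few members held most of the signal. In G9a het the 6 highest members, Cbr2, Gstm1, Cyp2f2, Ugt2a1, Cyp2a5 and Gsto1, held 69.1% of the FPKM of all 151. In Suv420h dhet the 6 highest were Cyp2a5, Ugt2a1, Cyp2g1, Cbr2, Gstm1 and Cyp2f2, with 75.5%. The Cyp2 family held 17.1% of member FPKM in G9a/GLP dKO, 17.7% in G9a KO GLP het, 20.9% in G9a KO and 25.6% in G9a het, with 46.4% in Suv420h dKO against 49.1% in Suv420h dhet. Of the 52 Cyp2 symbols, 35 stayed under 1 FPKM in every library, as did 7 of 8 Cyp3 symbols.

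The 2 tables were normalised separately, so the ages were set side by side by percentile, the share of the genes at 1 FPKM or more in a library that lay lower. Cyp2a5, a coumarin hydroxylase also known for nicotine oxidation, was at percentile 99.9 and rank 14 in Suv420h dhet, and at percentile 98.5 and rank 217 in G9a het. Cyp1a2, which oxidises aromatic amines, was at percentile 98.5 in the postnatal library and 3.52 in the embryonic one. Cyp4b1, known for activating inhaled furans, was at percentile 87.9 in the postnatal library and 8.73 in the embryonic one. Cyp2e1, the ethanol-oxidising P450, was at percentile 73.8 in Suv420h dhet and at 0.658 FPKM in G9a het. Fmo9 ran the other way, with 0 FPKM in both postnatal libraries and percentile 66.4 in G9a het. Age, mutation and the separate processing of the tables cannot be told apart here.

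**Figure D1:**
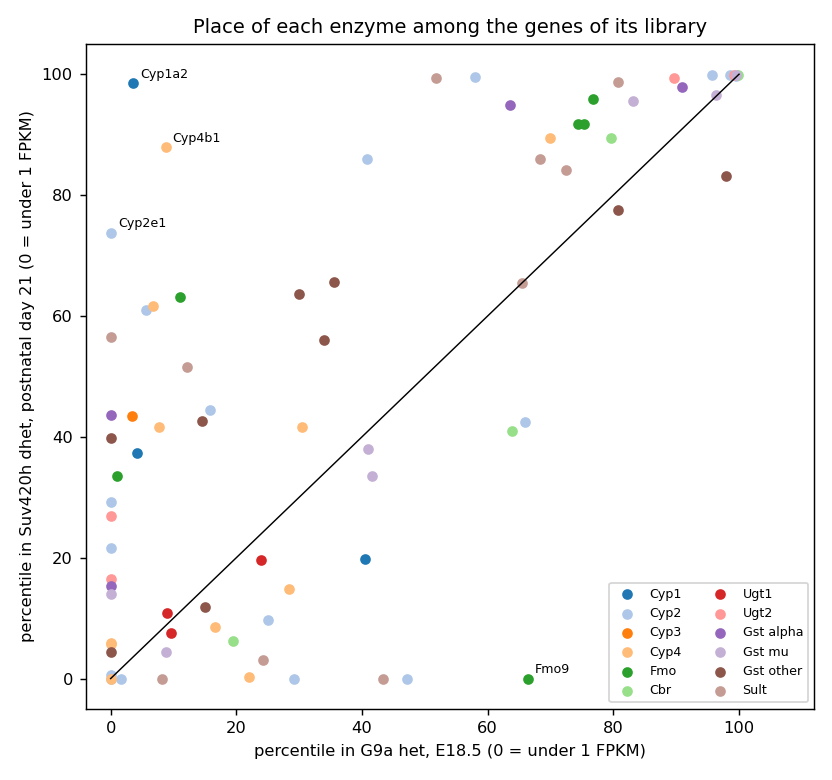
Percentile of each of the 79 members among the genes at 1 FPKM or more of its library, in G9a het at E18.5 (x axis) and Suv420h dhet at postnatal day 21 (y axis); members under 1 FPKM are drawn at 0, colours mark families and the line marks equal percentiles. Cyp1a2, Cyp4b1 and Cyp2e1 lie far above the line and Fmo9 far below it.

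At E18.5 the most abundant olfactory P450s, the olfactory glucuronosyltransferases and several sulfotransferases were lower in all 3 G9a knockout libraries than in G9a het. Compared Gst members of the kappa, omega, pi, theta and zeta classes stayed within 2-fold of G9a het on log2(FPKM + 1). A comparison needed 1 FPKM or more in either library. Of these, 6 of 8, 4 of 7 and 7 of 7 were above it in G9a/GLP dKO, G9a KO GLP het and G9a KO. Among all genes 48.3%, 51.5% and 47.1% were below G9a het, so the 4 of 7 was near the share of all genes. Ratios were taken on log2(FPKM + 1), which understates the differences of low genes, and a 2-fold ratio was used as the limit. In G9a/GLP dKO, 17 of the 67 members compared were at least 2-fold lower and 3 at least 2-fold higher, where 2.02% and 2.04% of all 15079 genes compared passed the same limits. In G9a KO GLP het the numbers were 15 lower and 3 higher of 65, against 3.92% and 2.12% of all genes. In G9a KO they were 6 lower and 2 higher of 67, against 1.02% and 0.996% of all genes. The median log2 ratio of the members compared was -0.19, -0.17 and 0.01 in these comparisons, beside 0.01, -0.01 and 0.02 for all genes. The remaining 84, 86 and 84 members lay under 1 FPKM in both libraries. The 3 comparisons share the G9a het library, so a chance value there enters all of them.

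The authors gave an interval for each embryonic FPKM, whose confidence level the sources used here do not state and which rests on the tool's model for 1 library. Of the members at least 2-fold lower, 15 of 17 in G9a/GLP dKO, 11 of 15 in G9a KO GLP het and 5 of 6 in G9a KO also had intervals that did not overlap with G9a het; for Sult1c2, listed at 0 with an interval of 0 to 0 in 2 libraries, this rests on the G9a het bound alone. Among all genes, 1.27%, 2.5% and 0.615% were lower by both rules. Of the members at least 2-fold higher, 1, 1 and 0 had intervals apart, beside 1%, 1.09% and 0.461% of all genes. Over the 68 members at 1 FPKM or more in an embryonic library, 26 had their highest value in G9a het (38.2%, beside 27.5% of all genes) and 21 their lowest, as did 28.9% of all genes. In bulk tissue, fewer cells of a type and less RNA per cell cannot be told apart.

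**Figure D2:**
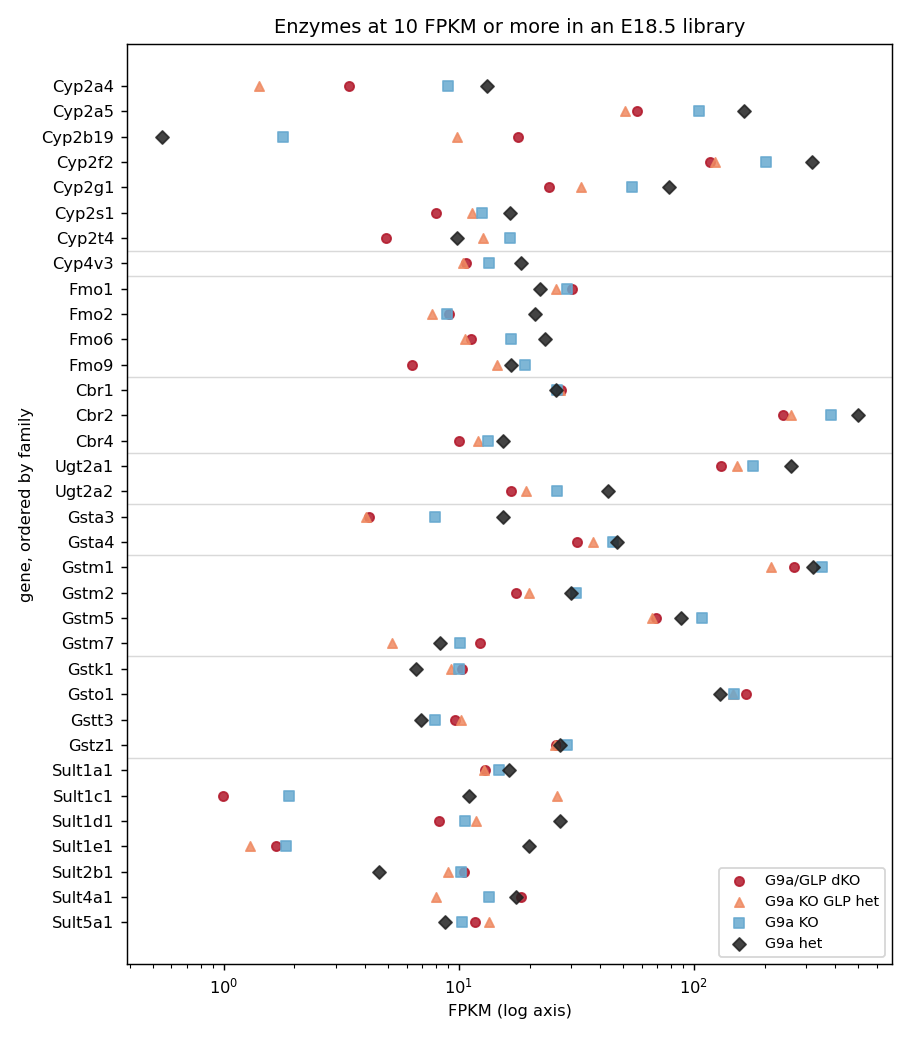
FPKM (log axis) of the 34 members at 10 FPKM or more in an embryonic library, in the 4 E18.5 libraries, with genes ordered by family down the page. For Cyp2a5, Cyp2f2, Cyp2g1, Cbr2 and Ugt2a1 the G9a het diamond lies to the right of the other libraries, and for Cyp2b19 and Gsto1 it lies to the left.

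Among the Cyp2 enzymes, Cyp2f2, which activates naphthalene in lung and nose, had 117 FPKM in G9a/GLP dKO, 123 in G9a KO GLP het, 202 in G9a KO and 318 in G9a het. Its values in G9a KO and G9a het lay above the authors' own intervals, 152 to 305 in G9a het, so its level there is uncertain. Cyp2a5 had 57.1, 50.7 and 105 FPKM in the same 3 libraries, against 163 in G9a het. Cyp2g1, a P450 known almost only from olfactory mucosa, had 24.2, 33.0 and 54.6 FPKM, against 78.3 in G9a het. For all 3 genes G9a het was the highest library, G9a KO came next, and the 2 libraries that had also lost GLP alleles were the lowest. The log2 ratios to G9a het were -1.5, -1.67 and -0.63 for Cyp2a5 and -1.65, -1.22 and -0.51 for Cyp2g1.

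Cyp2a4, a steroid hydroxylase, had 3.40 FPKM in G9a/GLP dKO, 1.42 in G9a KO GLP het, 8.97 in G9a KO and 13.2 in G9a het. Its reading frame is 98.5% identical to that of Cyp2a5, so reads may have been split between them by the authors' counting. Summed, the pair had 60.5, 52.1 and 114 FPKM, against 176 in G9a het, which is the order of Cyp2a5 alone. Cyp2s1, a P450 of epithelia outside the liver, had 8.04, 11.4 and 12.5 FPKM, against 16.5 in G9a het. Cyp2t4 did not follow them: it had 4.92 FPKM in G9a/GLP dKO but 12.7 in G9a KO GLP het, 16.6 in G9a KO and 9.85 in G9a het. Cyp2j6, known as an epoxygenase of arachidonic acid, differed little, with 6.45, 7.24 and 7.44 FPKM, against 8.16 in G9a het. Cyp2b10, the phenobarbital-inducible P450, was low throughout, at 0.180, 0.226 and 0.761 FPKM, against 1.64 in G9a het.

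**Figure D3:**
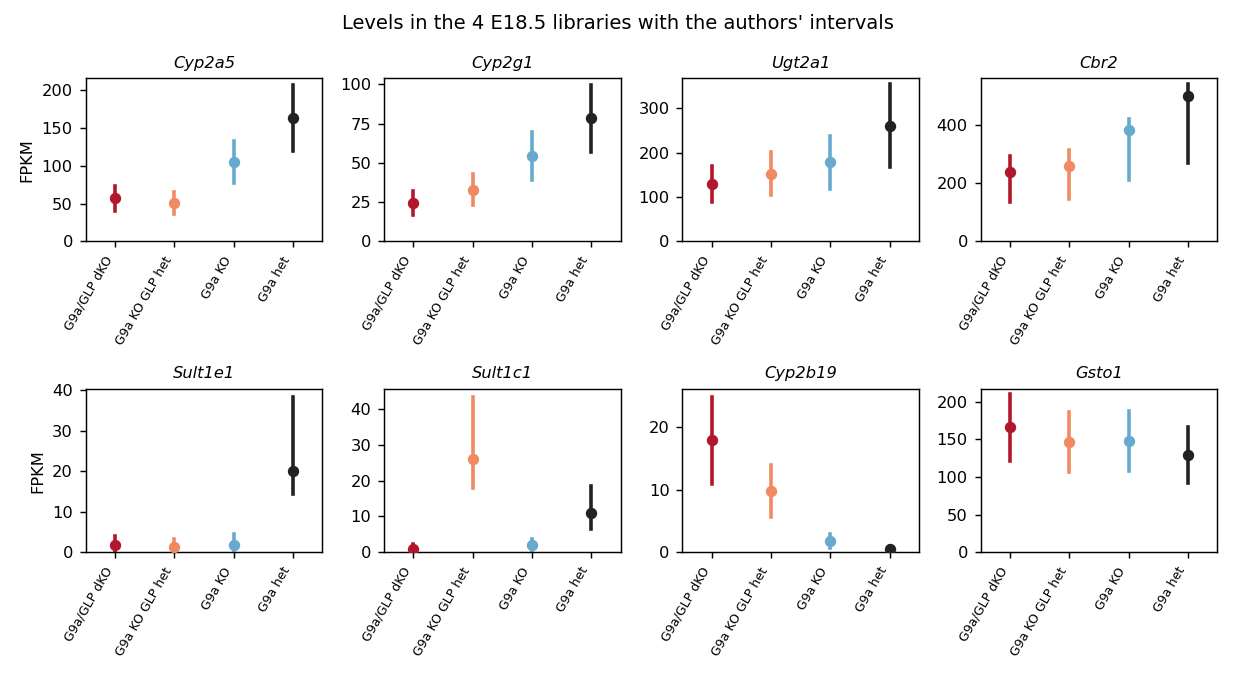
FPKM of 8 members in the 4 E18.5 libraries; points are the deposited values and bars the authors' intervals. The intervals of G9a/GLP dKO and G9a het lie apart for Cyp2a5, Cyp2g1, Sult1e1, Sult1c1 and Cyp2b19 and overlap for Ugt2a1, Cbr2 and Gsto1.

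The Cyp1 and Cyp4 members were mostly low in the embryo. Cyp1a1, the aryl hydrocarbon hydroxylase induced through the aryl hydrocarbon receptor, had 0.0639 FPKM in G9a/GLP dKO, 0.316 in G9a KO GLP het, 0.0675 in G9a KO and 1.47 in G9a het, and Cyp1a2 had 0.130, 1.03 and 1.41, against 1.37. Of the 4 libraries, Cyp1a1 was above 1 FPKM in G9a het alone. Cyp4v3, the mouse counterpart of a human fatty acid hydroxylase, had 10.7, 10.4 and 13.5 FPKM, against 18.4 in G9a het. Cyp4a12b, an arachidonic acid hydroxylase, had 0.390, 0.362 and 1.93 FPKM, against 1.91 in G9a het. Cyp4b1 had 1.95, 1.33 and 1.68 FPKM, against 2.07. Cyp4f13 had 4.96, 5.78 and 5.40 FPKM, against 5.8 in G9a het, and Cyp4f15 had 1.80, 2.49 and 3.20, against 1.77. Both belong to a subfamily of fatty acid and leukotriene hydroxylases, and neither was 2-fold apart in any embryonic comparison.

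Flavin monooxygenases, which oxidise nitrogen and sulfur centres of drugs and amines, did not share a direction. Fmo2 had 9.05 FPKM in G9a/GLP dKO, 7.68 in G9a KO GLP het, 8.94 in G9a KO and 21.2 in G9a het, and its G9a het interval of 15.3 to 34.0 lay above the others. Fmo6 had 11.3, 10.6 and 16.7 FPKM, against 23.2. Fmo9 was low in 1 library: it had 6.34 FPKM in G9a/GLP dKO but 14.6 in G9a KO GLP het, 19.1 in G9a KO and 16.7 in G9a het. Fmo1 was slightly higher in the knockout libraries, at 30.2, 25.8 and 29.0 FPKM, against 22.1, and Fmo5 stayed between 1.97 and 2.40 FPKM in all 4.

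Among the carbonyl reductases, Cbr2, the highest member in G9a het, had 239 FPKM in G9a/GLP dKO, 260 in G9a KO GLP het, 382 in G9a KO and 497 in G9a het. The authors' intervals overlapped, from 136 to 291 in G9a/GLP dKO and from 268 to 538 in G9a het. Cbr4, a mitochondrial quinone reductase, followed the same order at 9.98, 12.1 and 13.3 FPKM, against 15.5. Cbr1, the widely expressed carbonyl reductase, was level, with 27.1, 26.9 and 26.1 FPKM, against 25.8 in G9a het.

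Of the conjugating enzymes, the olfactory glucuronosyltransferase Ugt2a1 had 130 FPKM in G9a/GLP dKO, 153 in G9a KO GLP het, 178 in G9a KO and 260 in G9a het. Ugt2a2, which is listed at the same locus, had 16.7, 19.3 and 26.3 FPKM, against 43.0. All 3 knockout libraries were below G9a het for both, although the authors' intervals overlapped for both genes in every comparison. Ugt1a6b, a phenol glucuronosyltransferase, had 2.44, 1.61 and 3.16 FPKM, against 4.52. Symbols of the Ugt1a locus are 1 deposited interval with shared exons, so their split is uncertain, and the locus summed to 10.3, 7.98 and 9.70 FPKM, against 9.65 in G9a het.

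Glutathione S-transferases differed in direction both between classes and within them. Gsta3, of the alpha class, had 4.16 FPKM in G9a/GLP dKO, 4.04 in G9a KO GLP het, 7.96 in G9a KO and 15.5 in G9a het. Gsta4, which conjugates products of lipid peroxidation, had 31.8, 37.3 and 45.1 FPKM, against 47.1, and in all 4 libraries its value lay below the authors' own interval. Gsta1 and Gsta2, with reading frames 98.2% identical, were low and summed to 1.59, 0.973 and 2.7 FPKM, against 1.44 in G9a het. In the mu class, Gstm1 had 266, 212 and 350 FPKM, against 322, Gstm2 had 17.6, 19.9 and 31.6, against 29.9, and Gstm5 had 68.7, 66.3 and 108, against 88.0. G9a KO was thus the highest of the 4 libraries for these mu members and the 2 libraries that had also lost GLP alleles were the lowest. Gstm4 had 6.09, 5.88 and 6.45 FPKM, against 8.16 in G9a het, and Gstm7 had 12.3, 5.22 and 10.1, against 8.32. Gstm6 had 6.34, 3.77 and 6.32 FPKM, against 2.07, and was at least 2-fold higher in G9a/GLP dKO and G9a KO with overlapping intervals.

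Members of the remaining Gst classes that reached 10 FPKM in any library stood close to or above G9a het. Gsto1, an omega class enzyme that reduces dehydroascorbate, had 167 FPKM in G9a/GLP dKO, 146 in G9a KO GLP het, 148 in G9a KO and 129 in G9a het. Gstk1, of mitochondria and peroxisomes, had 10.3, 9.25 and 10 FPKM, against 6.58, and Gstt3, of the theta class, had 9.61, 10.2 and 7.92, against 6.91. Gstp1, of the pi class, had 9.64, 4.97 and 7.24 FPKM, against 5.73, and Gstz1, which also isomerises maleylacetoacetate in tyrosine breakdown, had 25.9, 25.7 and 28.8, against 27.0. Gsto2 and Gstp2 were low. Gsto2 had 1.67, 0.141 and 0.531 FPKM, against 0.995 in G9a het, and Gstp2 had 0.269, 0.357 and 0.349, against 0.654. Where both libraries lay under 1 FPKM, such differences were not counted. No member of these classes that was compared with G9a het was 2-fold apart from it on log2(FPKM + 1). Summed over the kappa, omega, pi, theta and zeta classes, the ratio to G9a het was 1.27, 1.12 and 1.16. Summed Cyp2 FPKM had ratios of 0.416, 0.428 and 0.684, and summed Ugt2 FPKM of 0.486, 0.569 and 0.675. For these 3 groups the direction was the same on a TPM scale and relative to supporting cell markers, whereas summed mu class FPKM had a ratio of 0.823 in G9a/GLP dKO that became 1.08 relative to those markers.

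On the log2(FPKM + 1) scale Sult1e1 had the lowest ratio of the set in all 3 comparisons. Sult1e1, the oestrogen sulfotransferase, had 1.67 FPKM in G9a/GLP dKO, 1.30 in G9a KO GLP het, 1.84 in G9a KO and 19.9 in G9a het. The 3 knockout libraries were alike, G9a het stood alone, and its interval of 14.4 to 38.3 lay apart from the others, of which the highest bound was 4.42. The log2 ratios were -2.97, -3.18 and -2.88. By plain FPKM it was 11.9-fold, 15.3-fold and 10.8-fold lower, and Cyp1a1, at lower levels, was 23.0-fold, 4.65-fold and 21.7-fold lower. Sult1d1, a catecholamine sulfotransferase in mice, had 8.25, 11.8 and 10.6 FPKM, against 27.0 in G9a het. Sult1e1, Sult1d1, Fmo2 and Sult1c2 were the 4 members at least 2-fold lower in all 3 comparisons. The share of all genes lower in all 3 was not computed. Because G9a het is shared by the 3 comparisons, a high value there alone would give such a recurrence. Sult1c2, named here after its values were seen, was listed at 0 in G9a/GLP dKO and G9a KO GLP het and had 0.285 in G9a KO and 1.98 FPKM in G9a het.

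Sult1c1 followed another order. It had 0.991 FPKM in G9a/GLP dKO, 26.1 in G9a KO GLP het, 1.89 in G9a KO and 11.1 in G9a het. The 2 libraries with Sult1c1 above 10 FPKM were the 2 with Ddx3y above 20 FPKM, and the part of sex in this difference was not tested. In the postnatal pair, where Ddx3y was at 0.185 FPKM in Suv420h dKO and 0 in Suv420h dhet, Sult1c1 was at 363 and 284 FPKM. Sult1a1 and Sult5a1 stayed within 2-fold of G9a het. Sult1a1, the general phenol sulfotransferase, had 12.9, 12.8 and 14.9 FPKM in the 3 knockout libraries, against 16.3 in G9a het. Sult1b1, known for thyroid hormone sulfation, had 4.01, 4.21 and 5.01 FPKM, against 2.57. Sult4a1, a mostly neuronal member, had 18.4, 8.0 and 13.4 FPKM, against 17.6, so it was at least 2-fold lower in G9a KO GLP het. Brain and olfactory bulb markers were low in that library too: all 8 were in the tables and summed to 37.2, 6.97 and 85.1 FPKM, against 35.2 in G9a het. Of the 7 markers compared in G9a KO GLP het, 6 were at least 2-fold lower, beside 3.92% of all genes, and Neurod6 and Slc32a1 were at 0 there. Their part in the Sult4a1 difference was not tested. Sult5a1 had 11.7, 13.5 and 10.3 FPKM, against 8.77. Sult6b1 stayed between 0.440 and 1.40 FPKM in the embryo.

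**Figure D4:**
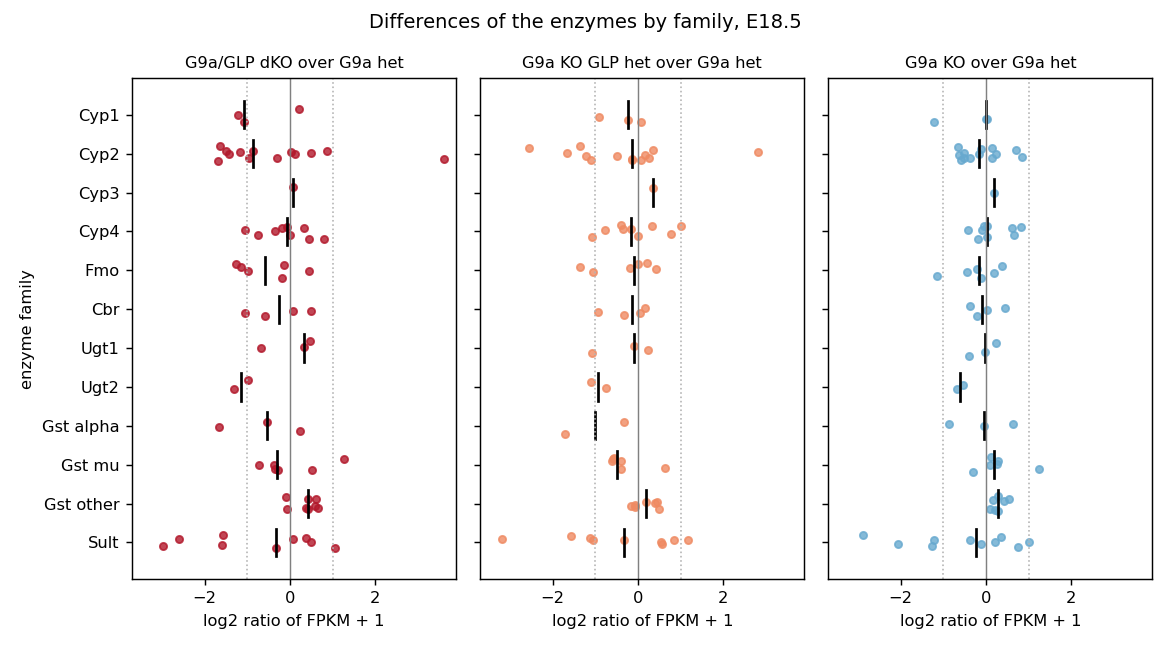
Log2 ratio of FPKM + 1 to G9a het for each member compared, by enzyme family and E18.5 library; each point is a gene, the black bar is the family median and dotted lines mark 2-fold. The medians of Cyp2, Fmo, Cbr, Ugt2, Gst alpha and Sult lie left of 0 in all 3 panels. Those of the other Gst classes and of Cyp3, which is 1 gene, lie right of 0. The Ugt2 median rests on 2 genes listed at the same locus.

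Cyp2b19 and Sult2b1, both known from skin, were higher in the G9a/GLP dKO library. Cyp2b19, the keratinocyte epoxygenase of arachidonic acid, had 17.9 FPKM in G9a/GLP dKO, 9.84 in G9a KO GLP het, 1.79 in G9a KO and 0.546 in G9a het. Its log2 ratios were 3.61, 2.81 and 0.85, and its intervals lay apart from that of G9a het in the first 2 of these libraries. Sult2b1, the cholesterol sulfotransferase of the epidermis, had 10.5, 8.97 and 10.2 FPKM, against 4.57, with overlapping intervals. Skin markers differed in the same libraries: Krt10 was at 899, 529 and 260 FPKM, against 162 in G9a het, and Lce1m at 106, 80.5 and 3.43, against 1.07. Of the 9 skin markers, 5, 5 and 1 were at least 2-fold higher in the 3 comparisons, beside 2.04%, 2.12% and 0.996% of all genes. Ratios were below 0 for 1, 1 and 2 of them, and none was at 0 FPKM in the embryo. Cdsn was among these, at 57.6, 42.7 and 63.8 FPKM, against 64.4 in G9a het. The part of skin in these differences was not tested.

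Most markers of the cells that make these enzymes were also lower at E18.5. Of the 8 supporting cell markers, 6, 6 and 5 had ratios below 0 in G9a/GLP dKO, G9a KO GLP het and G9a KO, with medians of -0.35, -0.39 and -0.20. Among all genes 48.3%, 51.5% and 47.1% had ratios below 0. Sec14l3 was at 31.5, 32.2 and 42.7 FPKM, against 59.5 in G9a het, and Krt18 at 38.6, 45.8 and 67.2, against 90.1. Sox2, which marks supporting cells and stem cells, was at 35, 32.9 and 40.7 FPKM, against 39.0. Bowman gland markers, of which 10 of 11 were in the tables, summed to 143, 199 and 342 FPKM, against 561 in G9a het. Of those compared, 4 of 7, 4 of 8 and 1 of 8 were at least 2-fold lower, beside 2.02%, 3.92% and 1.02% of all genes. Obp1a was under 1 FPKM in all 4 libraries, at 0, 0 and 0.145, against 0.361. Mature olfactory neuron markers summed to 103, 81.1 and 128 FPKM, against 253 in G9a het. Markers of some other tissues were lower too, but not of all. Respiratory ciliated cell markers, of which 6 of 8 were in the tables, had ratios below 0 for 6, 6 and 5 of the 6, with medians of -0.55, -0.45 and -0.22, and 0 were 2-fold apart. The 3 enamel markers summed to 8.33, 23.5 and 463 FPKM, against 912 in G9a het. Mesenchyme markers, in contrast, had ratios above 0 for 6, 8 and 6 of 8, with medians of 0.13, 0.40 and 0.06. Endothelium markers had medians of 0.06, 0.22 and 0.16, and neutrophil and myeloid markers of 0.80, 0.99 and -0.04. The part of sex and of glands, neurons, ciliated cells, tooth and other tissue in the enzyme differences was not tested. When each library was divided by the geometric mean of the supporting cell markers, 9 members remained at least 2-fold lower in G9a/GLP dKO, 7 did in G9a KO GLP het, and 5 did in G9a KO. The 9 were Sult1e1, Sult1c1, Cyp2a4, Gsta3, Cyp2g1, Sult1d1, Sult1c2, Cyp2a5 and Cyp2f2, all of which were also lower by FPKM alone. On that scale 0.836%, 1.83% and 0.682% of all genes were at least 2-fold lower. The members at least 2-fold higher on it were 7, 5 and 3, beside 6.62%, 5.07% and 1.51% of all genes, and the member median was 0.21, 0.16 and 0.18, beside 0.41, 0.32 and 0.18 for all genes.

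Several of the lower members are neighbours in the genome. On chromosome 7 (mm9, from 27450246 to 27943583), 5 expressed members lie in the order Cyp2b19, Cyp2g1, Cyp2a5, Cyp2f2 and Cyp2t4. Cyp2g1 and Cyp2a5 are 14.1 kb apart and both were lower in G9a/GLP dKO, whereas Cyp2b19, 36.3 kb to the other side of Cyp2g1, had the highest ratio of the set there. On chromosome 5, Ugt2a1 and Ugt2a2 share the interval from 87888515 to 87919896. Sult1b1 lies 22.5 kb after them, Sult1d1 16.5 kb after Sult1b1, and Sult1e1 6.96 kb after Sult1d1. In all 3 knockout libraries Ugt2a1, Ugt2a2, Sult1d1 and Sult1e1 were below G9a het and Sult1b1, between them, was above it. The 7 mu class genes on chromosome 3 lie within 168 kb, and 4, 5 and 1 of the 6 compared had ratios below 0 in G9a/GLP dKO, G9a KO GLP het and G9a KO, beside 48.3%, 51.5% and 47.1% of all genes.

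At postnatal day 21 few enzymes were 2-fold apart between the Suv420h libraries. Ratios were below 0 for 36.5% of the members compared, beside 60.6% of all genes. Of the 74 members compared, 3 were at least 2-fold higher in Suv420h dKO and 0 lower, where 0.691% and 2.06% of all 14331 genes passed those limits, and 77 members lay under 1 FPKM in both libraries. The authors' deposited table gives a q-value at or under 0.05 for 5 members that were higher in Suv420h dKO, namely Cyp1a1, Ugt1a7c, Gstm4, Cyp4a12b and Gstm1, and for 0 that were lower. By the same table, 0.586% of all genes were higher and 3.6% lower at that q-value, from a test of a lone library against another, which speaks of those libraries rather than of the mutations. With both a 2-fold ratio and such a q-value there were 2 higher members, Cyp1a1 and Ugt1a7c, and 0 lower, beside 0.223% and 1.49% of all genes by the authors' deposited table. The median log2 ratio of the members was 0.11 and turned to -0.06 on a TPM scale, on which the median of all genes was -0.24, beside -0.06 by FPKM.

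The most abundant olfactory members differed little. Cyp2a5 had 2731.4 FPKM in Suv420h dKO and 2567.1 in Suv420h dhet, Cyp2g1 had 1305.1 and 1449.8, and Ugt2a1 had 1587.1 and 1603.4. Cbr2 had 1008.2 FPKM in Suv420h dKO and 1030.2 in Suv420h dhet, Cyp2f2 had 648 and 613, Cyp2a4 had 539 and 491, and Ugt2a2 had 388 and 306. In the authors' deposited table the q-values of these 7 genes ran from 0.187 for Ugt2a2 to 0.991 for Ugt2a1. Cyp1a2 had 140 FPKM in Suv420h dKO and 171 in Suv420h dhet, Sult1d1 had 222 and 190, and Sult1e1, which stood apart in the embryo, had 41.4 and 32.9.

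Cyp1a1 and, of the mu class, Gstm1 and Gstm4 were higher in Suv420h dKO. Cyp1a1 had 18 FPKM in Suv420h dKO and 6.90 in Suv420h dhet, a log2 ratio of 1.27, with a q-value of 3.17e-06 in the authors' deposited table. Gstm1 had 1277.7 FPKM in Suv420h dKO and 777 in Suv420h dhet, with a q-value of 0.000451 in the authors' deposited table. Gstm4 had 14.8 FPKM in Suv420h dKO and 7.07 in Suv420h dhet, with a q-value of 0.00825 in the authors' deposited table. Gstm5 had 124 and 92.3 FPKM in these libraries, Gstm2 had 83.2 and 80, and Gstm7 had 5.75 and 6.04. The summed FPKM of the 7 mu class genes had a ratio of 1.57, or 1.38 on a TPM scale, and most of that sum is Gstm1.

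Ugt1a7c, a symbol of the shared Ugt1a locus, had 6.23 FPKM in Suv420h dKO and 2.18 in Suv420h dhet, with a q-value of 0.00101 in the authors' deposited table. Cbr3, a relative of Cbr1, had 4.96 FPKM in Suv420h dKO and 1.60 in Suv420h dhet, with a q-value of 0.0675 in the authors' deposited table. Cyp4a12b had 14.0 FPKM in Suv420h dKO and 8.01 in Suv420h dhet, with a q-value of 0.0405 in the authors' deposited table. Its reading frame is 98.6% identical to that of Cyp4a12a, and the pair summed to 17.8 FPKM in Suv420h dKO and 9.59 in Suv420h dhet.

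**Figure D5:**
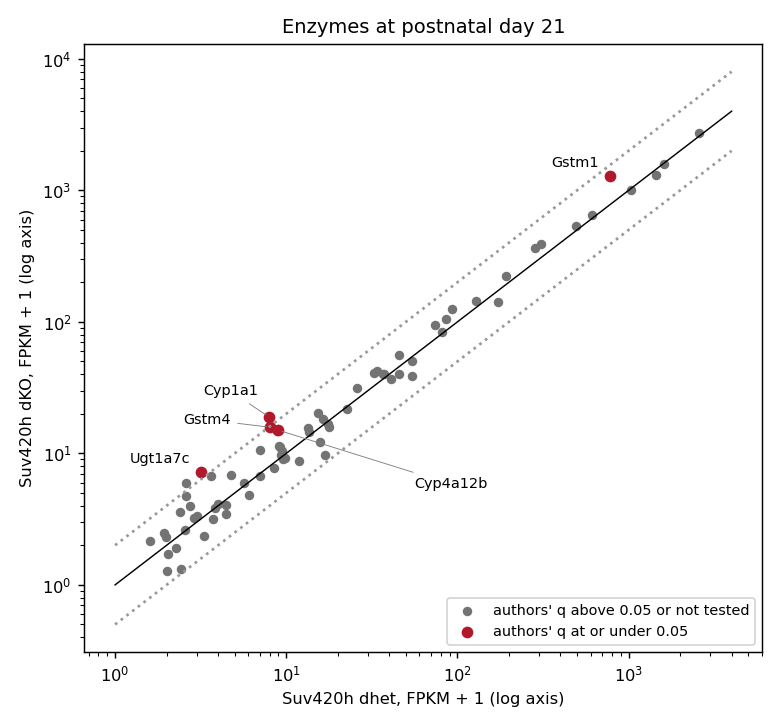
FPKM + 1 of the members at 1 FPKM or more in either postnatal library, Suv420h dKO (y axis) against Suv420h dhet (x axis), both on log axes; the solid line marks equality, dotted lines mark 2-fold and red points have an authors' q-value at or under 0.05. The abundant members lie on the line, and Cyp1a1, Ugt1a7c, Gstm4, Cyp4a12b and Gstm1 lie above it.

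Sequence before the start of Cyp1a1 and Gstm1 is shown because both were higher in Suv420h dKO and both hold the letters GCGTG, the core that the aryl hydrocarbon receptor and its partner bind. The windows are RefSeq promoter sequence on GRCm38.p6, written 5′ to 3′ on the strand of the gene, with GCGTG in capitals. For Cyp1a1 it is chr9:57697534-57697593 on the plus strand, with the match beginning at base -54 from the annotated start. For Gstm1 it is chr3:108018015-108018074 on the minus strand, with the match beginning at -76 from 1 of its annotated starts.
Cyp1a1: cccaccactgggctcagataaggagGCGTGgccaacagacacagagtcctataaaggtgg
Gstm1: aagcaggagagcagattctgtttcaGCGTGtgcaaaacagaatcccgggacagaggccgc
On either strand of windows from 250 bases before to 50 bases after a start, GCGTG occurred in 26.6% of the 79 windows of expressed members and in 32.4% of the 32851 windows of all genes. TGACNNNGC, the core bound by Nrf2, occurred in 6.33% and 12.4%. Of the 79 expressed members 67 matched the promoter table, and 19 of these held GCGTG and 5 held TGACNNNGC. Of the other 3 members with a q-value at or under 0.05, Ugt1a7c and Gstm4 had no GCGTG in their windows and Cyp4a12b was not matched. A match is a description of the letters only. Ahr, the receptor itself, was at 5.81 FPKM in Suv420h dKO and 7.43 in Suv420h dhet, and at 11.9 in G9a/GLP dKO, 15.6 in G9a KO GLP het, 9.03 in G9a KO and 11.4 in G9a het.

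The other members above 10 FPKM gave no postnatal q-value under 0.05 in the authors' deposited table. Among P450s, Cyp2b10 had 19.4 FPKM in Suv420h dKO and 14.4 in Suv420h dhet, Cyp2e1 had 20.8 and 21.7, Cyp2j6 had 39.0 and 36.1, and Cyp4b1 had 36.1 and 40.0. Cyp4v3 had 38.9 and 44.3 FPKM in the same order, Cyp4f15 had 11.1 and 14.8, Cyp4f13 had 10.4 and 8.05, and Cyp2s1 had 10.1 and 8.21. Cyp2b19 had 5.83 FPKM in Suv420h dKO and 3.74 in Suv420h dhet, and Cyp2t4 had 1.5 and 0.923. None of these P450s was 2-fold apart.

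Fmo6 had 105 FPKM in Suv420h dKO and 85.3 in Suv420h dhet, Fmo1 had 37.8 and 53.3, Fmo2 had 49.2 and 53.3, and Fmo5 had 17.2 and 15.4. Cbr1 had 54.7 FPKM in Suv420h dKO and 44.6 in Suv420h dhet, and Cbr4 had 13.8 and 7.84. All of these lay within 2-fold. Gsta4 had 142 FPKM in Suv420h dKO and 127 in Suv420h dhet, Gsta3 had 93.9 and 73.1, Gsto1 had 39.7 and 31.5, and Gstz1 had 30.2 and 25. Gstk1 had 14.6 and 12.4 FPKM in the same order, Gstt3 had 14.8 and 16.7, and Gstp1, whose reading frame is 98.1% identical to that of Gstp2, had 8.73 and 15.8.

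Sult4a1 had 38.9 FPKM in Suv420h dKO and 35.7 in Suv420h dhet, Sult1a1 had 15.6 and 16.6, Sult6b1 had 13.6 and 12.6, and Sult1b1 had 7.71 and 10.9, all within 2-fold. Sult2b1 and Sult5a1 were low in both libraries, at 0.907 and 0.379 FPKM in Suv420h dKO and at 1.28 and 0.416 in Suv420h dhet. Sult1c1, at 363 FPKM in Suv420h dKO and 284 in Suv420h dhet, was not tested in the authors' deposited table. Other tissue differed between these 2 libraries: Col1a1 was at 660 FPKM in Suv420h dKO and 1858.0 in Suv420h dhet, 5 skeletal muscle markers summed to 2.26 and 58.9 FPKM, and Lcn3, a lipocalin of nasal glands, was at 243 and 3.96. The part of these tissues in the enzyme differences was not tested.

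Genes that work beside the members, namely other enzymes, suppliers of electrons and cofactors, regulators and transporters, were examined as lists of 63 genes, 62 of them in the tables. In G9a/GLP dKO, 7 of 50 compared were at least 2-fold lower and 1 higher, with a median log2 ratio of -0.09, where 2.02% of all genes were lower and 2.04% higher. In G9a KO GLP het 2 of 51 were lower and 2 higher, with a median of -0.07, beside 3.92% and 2.12% of all genes. In G9a KO 1 of 50 was lower and 2 higher, with a median of -0.13, beside 1.02% and 0.996% of all genes, so the lower counts in these 2 comparisons were near those of all genes. Lower genes in G9a/GLP dKO included Aldh1a1, a retinaldehyde dehydrogenase, at 22.0 FPKM against 48.7 in G9a het, Ces1d, a carboxylesterase, at 10.3 against 26.5, and the aldehyde oxidases Aox3l1, at 11.4 against 24.9, and Aox3, at 3.08 against 7.97. Adh7, an alcohol dehydrogenase, was at 7.41 FPKM in G9a/GLP dKO against 16.8 in G9a het. Ces1d was also lower in G9a KO GLP het, at 12.2 FPKM, and Mgst2, a microsomal glutathione transferase, was lower in G9a KO, at 1.24 FPKM against 5.50 in G9a het. Papss2, which makes the sulfate donor used by sulfotransferases, was at 22.1 FPKM in G9a/GLP dKO, 24.5 in G9a KO GLP het, 28.4 in G9a KO and 49.0 in G9a het. Akr1c13, an aldo-keto reductase, was higher, at 5.59, 3.36 and 7.32 FPKM, against 0.684. Por, the reductase that supplies electrons to microsomal P450s, was at 34.5, 42.1 and 55.3 FPKM, against 63.6, which is the order of Cyp2f2 and Cyp2g1 without a 2-fold difference. In Suv420h dKO 0 of 52 were 2-fold apart, and Aldh1a1, at 167 FPKM against 115 in Suv420h dhet, had a q-value of 0.00459 in the authors' deposited table.

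Similarity among the members limits some of these values. Of the 79 expressed members, 37 share at least 1 window of 50 bases in their reading frames with another member, and 20 share at least 10% of their windows. Ugt2a1 and Ugt2a2 summed to 147 FPKM in G9a/GLP dKO, 172 in G9a KO GLP het, 204 in G9a KO and 303 in G9a het, and to 1975.0 in Suv420h dKO against 1909.0 in Suv420h dhet. The Cyp2a4 and Cyp2a5 pair summed to 3270.7 FPKM in Suv420h dKO and 3058.6 in Suv420h dhet. Cyp2g1, Cyp2f2, Sult1e1, Sult1d1 and Cbr2 have no near-identical partner in the set.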

How the data were processed

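The 6 libraries hold polyadenylated RNA of mouse olfactory epithelium, 4 at E18.5 and 2 at postnatal day 21, and every genotype is a lone library. Reads were processed with TopHat, Cufflinks and Cuffdiff on build mm9, per the submitters' processing notes. Tool versions, annotation and the handling of reads with several matches: not given in the sources used here. Each table gives, as the authors deposited them, FPKM values per gene symbol, with interval bounds in the embryonic table and p-values and q-values in the postnatal table, per the file headers. The authors' deposited log2 ratios were not used. No value of 2 further columns was used. Depth is unknown, so no counting interval is given. Members Cyp2f2 and Gsta4 lay outside their own interval in at least 1 embryonic library. Dates had replaced 25 symbols of the postnatal file.

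From these values log2(FPKM + 1) ratios were computed within each table for members at 1 FPKM or more in either library, and genes at least 2-fold apart were counted. The same was done for all other genes, leaving out symbols starting with Olfr, Mir, Snor, Rnu, Scarna or n-R. This step was tested on simulated data. No test between genotypes was run. The members and gene lists were chosen with earlier results of these data known. Members at 10 FPKM or more are given for every library, and members from 1 to 10 FPKM are named where 2-fold apart with 2 FPKM or more; pathway genes are named where 2-fold apart with 5 FPKM or more, with others chosen as examples. Reading frames are the longest open frames of GENCODE M21 transcripts, compared with blastn 2.17.0 and called near-identical at 95% or more over 80% of the longer frame. Gene coordinates come from the authors' tables (mm9) and count from 1; gene neighbours lie within 300 kb. Promoter windows are from RefSeq on GRCm38.p6. Tables were handled with pandas 2.3.3 and figures drawn with matplotlib 3.10.9. Alternatives covered pseudocounts, minimum FPKM, 3 other scalings, interval or q-value demands, summed copies and other comparison libraries.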

Additional observations from a re-analysis of the deposited data

How the results depend on the processing

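Of 128 alternatives for the 12 counts and medians, 95 kept direction and stayed within 1.5 times, 26 moved further and 7 changed sign or direction; of 768 alternatives for the 48 members at 10 FPKM or more, 744 moved by less than 1.5 times, 24 moved more and 0 of those at least 2-fold apart changed sign. Smaller ratios changed sign in 40 of the 768, each no larger than 0.37 on the log2 scale: 26 relative to supporting cell markers, 9 on a TPM scale, all of them in the Suv420h pair, and 5 when centred on all genes. The cause was not tested unless the construction shows it. In G9a/GLP dKO the 3 higher members became 5 with a pseudocount of 0.1 or 0.5 or on a TPM scale, 7 relative to supporting cell markers, 1 where the authors' intervals also had to lie apart, 1 with G9a KO in place of G9a het and 1 without Cyp2b19, Sult2b1 and Cyp4f39. The 17 lower members became 9 relative to supporting cell markers, 6 against G9a KO and 3 against G9a KO GLP het, and the median of -0.19 became 0.21 relative to those markers and 0.03 against G9a KO GLP het. In G9a KO GLP het the 3 higher members became 5 relative to supporting cell markers and 1 with intervals apart, the 15 lower became 7 relative to the markers and 3 against G9a KO, and the median of -0.17 became 0.16 relative to the markers. In G9a KO the 2 higher members became 5 with a pseudocount of 0.1, 4 with 0.5 or on a TPM scale, 1 when centred on all genes or without the 3 skin members, and 0 with intervals apart; the 6 lower became 2 against G9a KO GLP het. Its median of 0.01 became -0.03 with a minimum of 5 FPKM and -0.01 when centred or without the skin members. In Suv420h dKO the 3 higher members became 6 with a pseudocount of 0.1 and 5 with 0.5, the 0 lower became 2, 1 and, on a TPM scale, 2, and the median of 0.11 became -0.06 on a TPM scale. Relative to the supporting cell markers the median of all genes itself moved to 0.41 in G9a/GLP dKO, 0.32 with GLP heterozygous and 0.18 in G9a KO. Identity between proteins was not run for want of protein sequences here; identity of reading frames replaced it. That choice, G9a KO and G9a KO GLP het in place of G9a het for the other 2 embryonic comparisons, and the exclusion of the skin members were added after the data were seen. No paired analysis was possible because each genotype has 1 library and the labels give no replicate numbers.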
